A study of Mus musculus with 4 samples.

Results

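The hypoxia and glycolysis genes described here are 32 genes, chosen by symbol, of the 32285 genes that the 4 count matrices list. They take up 33 rows, because the symbol Aldoa has 2 identifiers, and the row meant here is the one with nearly all of its UMIs. Glycolysis and the transport and handling of glucose, pyruvate and lactate account for 20 of them. The other 12 are the HIF system and its targets.

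Glycolysis splits glucose into pyruvate with a small yield of ATP and no need for oxygen, and cells that rely on it export lactate. HIF-1 is a transcription factor whose alpha subunit, Hif1a, is marked for destruction by the oxygen-dependent prolyl hydroxylases Egln1 and Egln3, so that in low oxygen it builds up and switches on glucose transporters, glycolytic enzymes and genes of mitophagy and collagen processing. Neutrophils are known for living mainly on glycolysis, and a young fracture callus is known as a site of low oxygen.

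The samples were calluses of fractured tibiae from 20-month-old male C57BL/6J mice, taken 7 days after treatment with an adenosine microgel (2 libraries) or a control microgel (2 libraries). The labels name no genetic modification, give bone marrow as the tissue, and leave it unsaid if each library is 1 animal or a pool, so the p-values cover library-to-library spread, which may be technical. Viable cells were sorted after red cell lysis and profiled with a droplet 3' kit that counts unique molecular identifiers (UMIs). Values per library are given in the order control 1, control 2, adenosine 1, adenosine 2, as counts per 1000000 UMIs of the cell class (CPM).

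After quality control and doublet removal 8677, 6284, 8194 and 8125 cells remained of 35274 barcodes, from libraries with 58453640, 32277757, 59503381 and 68117846 UMIs in all. Each cell was placed in a class by a gate on marker genes that include none of the 32 genes, and 1534 cells (4.90%) could not be placed. The gated cells were mostly neutrophils, and markers of callus tissue were scarce: the 5 chondrocyte markers summed to 0.181, 24.5, 5.07 and 0.207 CPM and the 6 mesenchymal or fibroblast markers to 123, 227, 107 and 147 CPM over all cells. Mature neutrophils numbered 3224, 4403, 2870 and 2233 cells, immature neutrophils 2615, 210, 2523 and 2052, and monocytes and macrophages together 1455, 1015, 1015 and 1234. The libraries shared between 13 and 28 cell barcodes pairwise, at most 0.305% of the smaller library.

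Control 2 stood apart from the other 3 libraries in its marker levels and in its clusters, which were drawn on variable genes of all kinds. The 6 markers of the mature neutrophil gate summed to 38889, 10390.3, 42273 and 40047 CPM in the gated cells, so control 2 had the least. Its mature neutrophils lay in clusters that the other libraries hardly filled: 37.8% in a cluster led by Hcar2, Cxcl2 and Ccl3, 28.5% in one led by Il1b, Acod1 and Cxcl3, and 26.2% in one led by Steap4. In control 1 and adenosine 1 most mature neutrophils were in clusters led by Cd101 (41.04% and 43.2%) and by stefin genes such as Stfa2 (37.2% and 34.1%), and in adenosine 2 59.1% were in a cluster led by interferon-response genes such as Oasl2 and Rsad2. Of the monocytes and macrophages of control 2, 80.5% were in a cluster led by Arg1 and C1q genes that held 5.43%, 11.9% and 3.00% of those of the other libraries. Counts of calls over all the hypoxia and glycolysis genes, between stages and between classes, are therefore also given without control 2. Counts for lists of other genes always include it. For the treatment in mature neutrophils, in monocytes and macrophages and in B cells, counts of signs are given without it.

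The promoters of these genes are shown because HIF binds a short motif, ACGTG or GCGTG. Of the 32 genes 29 are in the promoter table used (RefSeq, build GRCm38.p6, Ero1l under its newer symbol); Slc2a3, Ndrg1 and Bnip3l have no entry. The motif was searched on both strands in the 250 bases before each start site, taking for each gene the start with the most matches, and CACGTG, which holds the motif on either strand, counts as 2 overlapping matches. For Egln3, Hif1a, Pgam1, Mif and the Ldha start used, the start site was not found to open an annotated transcript of the gene. Their windows were counted all the same. At least 1 match stood in 26 of the 29 (89.7%), against 41.5% of 27025 genes in the table, and at least 2 stood in 19 (65.5%), against 18.7%. The list was picked by symbol and holds known HIF targets, so a larger share was likely beforehand and tests nothing. Among genes called higher in mature than in immature neutrophils (below) 10 of 11 had a match, and among those not called 14 of 15, shares that lie close together. The 5 windows below run 5' to 3' on the gene's strand and end at the base before the start site, with the motif on either strand in capitals. They show 4 genes whose level was higher in mature neutrophils and Gpi1, called lower there, which has no match. Genes not shown went the other way: Mif, called higher, has no match, and Hk2, called lower, has 2. A match is only a run of letters and was not tested for binding.
Ankrd37, chr8:45999851-46000100, minus strand: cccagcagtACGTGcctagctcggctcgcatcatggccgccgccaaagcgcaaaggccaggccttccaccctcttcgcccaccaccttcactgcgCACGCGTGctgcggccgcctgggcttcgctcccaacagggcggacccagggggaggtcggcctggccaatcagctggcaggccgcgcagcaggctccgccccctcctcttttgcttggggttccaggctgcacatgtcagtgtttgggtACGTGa
Bnip3, chr7:138909507-138909756, minus strand: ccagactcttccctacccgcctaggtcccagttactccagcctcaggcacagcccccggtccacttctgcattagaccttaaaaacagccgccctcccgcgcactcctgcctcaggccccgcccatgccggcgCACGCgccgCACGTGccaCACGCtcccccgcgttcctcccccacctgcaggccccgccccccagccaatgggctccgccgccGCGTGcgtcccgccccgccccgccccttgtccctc
P4ha1, chr10:59323046-59323295, plus strand: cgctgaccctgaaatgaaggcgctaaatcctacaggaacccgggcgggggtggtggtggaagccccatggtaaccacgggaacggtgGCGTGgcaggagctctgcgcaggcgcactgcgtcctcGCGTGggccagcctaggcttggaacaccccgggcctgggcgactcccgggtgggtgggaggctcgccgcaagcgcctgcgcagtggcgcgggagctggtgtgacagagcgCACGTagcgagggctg
Slc16a3, chr11:120948817-120949066, plus strand: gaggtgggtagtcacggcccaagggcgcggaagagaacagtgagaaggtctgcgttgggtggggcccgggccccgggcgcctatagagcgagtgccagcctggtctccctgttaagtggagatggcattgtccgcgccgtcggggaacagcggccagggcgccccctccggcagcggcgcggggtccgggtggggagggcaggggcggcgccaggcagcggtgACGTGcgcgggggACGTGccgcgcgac
Gpi1, chr7:34230337-34230586, minus strand: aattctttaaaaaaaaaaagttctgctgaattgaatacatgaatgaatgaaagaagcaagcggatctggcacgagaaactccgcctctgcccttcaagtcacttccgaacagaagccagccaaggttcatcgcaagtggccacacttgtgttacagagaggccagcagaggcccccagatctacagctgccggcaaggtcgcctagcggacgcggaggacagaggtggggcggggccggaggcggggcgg

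Over the cell classes, summed UMIs of the 20 glycolysis genes were higher in the neutrophil and monocyte lineages than in B cells and dendritic cells in each library. The sum in mature neutrophils was 4369.9, 9875, 4479 and 4439.9 CPM, in immature neutrophils 4569, 5283, 4868 and 4888 CPM and in monocytes and macrophages 3582, 7800.3, 4084 and 4646 CPM. Control 2 was above the others in all 3 classes, by more than the range of the others. In granulocyte-monocyte progenitors the sum was 5547, 5190.0 and 6586 CPM in control 1, adenosine 1 and adenosine 2, while control 2 held 1 such cell. Dendritic cells had 1863, 3979, 1838 and 2221 CPM, B cells 1924, 1943, 1178 and 1406 CPM and T or NK cells 1783, 3073, 1698 and 4031 CPM (43 cells in control 2). B cells, dendritic cells and T or NK cells could not be put in an order, since their ranges overlap.

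The 12 HIF genes summed to 704, 2135, 858 and 491 CPM in mature neutrophils, 531, 520.3, 609 and 477 CPM in immature neutrophils and 724, 1973, 838 and 626 CPM in monocytes and macrophages. In mature neutrophils and in monocytes and macrophages control 2 was again far above the rest, and in immature neutrophils the 4 libraries lay close together. Which gene leads also depended on the class. By the mean over libraries with at least 50 cells, Slc2a3, Slc16a3, Slc2a1, Pfkfb4 and Egln3 were among the genes highest in mature neutrophils, Gpi1, Hk2, Hk3, Bnip3l and Ero1l among those highest in immature neutrophils, and Gapdh, Ldha, Pgam1 and Mif were highest in the progenitors. A level in CPM from 3' tags follows molecules per gene and is not divided by gene length. In classes with at least 50 cells in each library Adm, the vasodilator peptide adrenomedullin, was at most 7.59 CPM, in dendritic cells of control 2, and passed no filter in neutrophils or in monocytes and macrophages, which leaves 31 genes tested there. Gapdh, Aldoa, Eno1, Pgk1, Tpi1, Ldha and Mif have near-identical copies elsewhere in the genome, and how the authors' counting shared reads between them is not given in the sources used here.

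**Figure D1:**
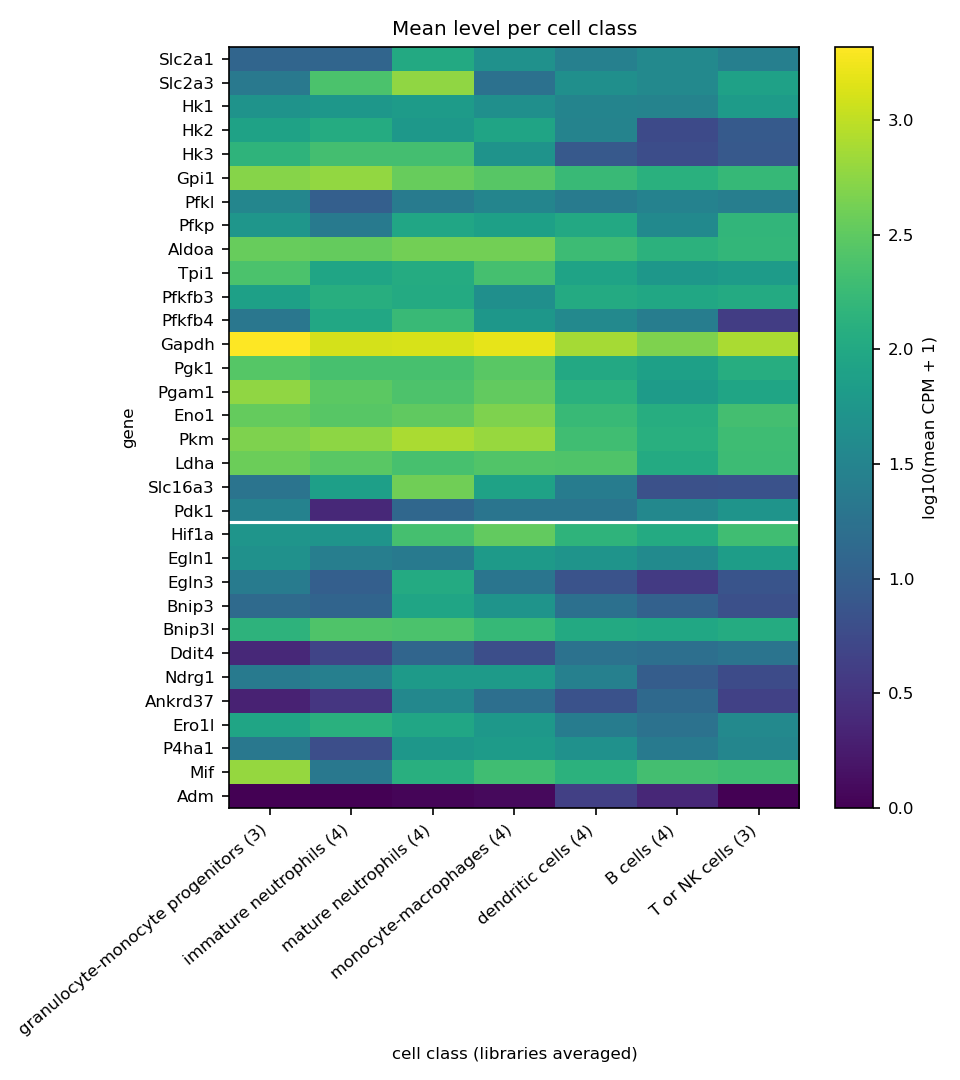
Mean level of each of the 32 genes in 7 cell classes, as log10(mean CPM + 1) on a colour scale, averaged over the libraries with at least 50 cells of the class (their number in parentheses). The white line parts the 20 glycolysis genes above from the 12 HIF genes below; Gapdh is the brightest row, and Slc2a3 stands out in the neutrophil columns.

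The comparison of mature with immature neutrophils asks how these genes differ between stages of one lineage within the same library. Of the 31 genes tested 13 were higher in mature neutrophils (13 of 31, where 29.4% of all 11096 genes tested were higher) and 2 were lower (32.2% of all genes), by edgeR's quasi-likelihood test with the library as a block and Benjamini-Hochberg adjustment. Among the 11 HIF genes tested 7 were higher and none was lower, with a median log2 ratio of 1.75. Among the 20 glycolysis genes 6 were higher and 2 were lower, with a median of 0.14. The median of all genes tested was -0.04, or -0.19 when scaled by library size alone, a shift that changed none of the 15 calls but turned the direction of Eno1, Gapdh, Hk1 and Bnip3l, which were not called. In either direction 61.6% of all genes were called.

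Both glucose transporters were higher in mature neutrophils. Slc2a1, the widely expressed transporter GLUT1, was at 7.61, 20.5, 9.84 and 6.35 CPM in immature and 53.98, 268, 50.3 and 41.1 CPM in mature neutrophils. Every library was higher in the mature cells, and control 2 was the highest in both stages. Its log2 ratio came to 3.02 (SE 0.23), with adjusted p = 0.000103 by edgeR's quasi-likelihood test. Slc2a3, the high-affinity transporter GLUT3, was at 236, 191, 315 and 217 CPM in immature and 679.9, 297, 755 and 584 CPM in mature neutrophils. Here control 2 was the lowest library in both stages, and each library rose. Its log2 ratio was 1.37 (SE 0.18) (adjusted p = 0.000728, edgeR's quasi-likelihood test).

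The enzymes between glucose and pyruvate were mostly not called. Hk2, a hexokinase that starts glycolysis, was at 95.6, 119, 117 and 99.1 CPM in immature and 28.6, 105, 55.5 and 43.2 CPM in mature neutrophils, lower in every library but close between stages in control 2. Gpi1, glucose-6-phosphate isomerase, was at 571, 507, 702 and 602 CPM and 377, 163, 455 and 404 CPM, again lower in every library, most so in control 2. These 2 were the genes called lower, with log2 ratios of -0.90 (SE 0.25) and -0.71 (SE 0.21) and adjusted p = 0.0194 and 0.024 by edgeR's quasi-likelihood test. Neither call held with every single library left out: Hk2 was called in 1 and Gpi1 in 2 of the 4 such fits.

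Pfkp, a form of phosphofructokinase, the committed step, rose from 19.4, 27.5, 23.4 and 17.7 CPM in immature to 35.6, 259, 48.8 and 26.1 CPM in mature neutrophils. Control 2 carried much of it, although every library rose. Its log2 ratio came to 1.52 (SE 0.43) with adjusted p = 0.0202 by edgeR's quasi-likelihood test, and 1.00 without control 2. Pfkfb4, which makes the activator of phosphofructokinase, rose from 102, 79.3, 111 and 90.1 CPM to 209, 107, 208 and 185 CPM, least in control 2, with a log2 difference of 1.00 (SE 0.15) and adjusted p = 0.0012 by edgeR's quasi-likelihood test. Its relative Pfkfb3 was at 129, 91.2, 153 and 100.0 CPM in immature and 89.96, 161, 95.7 and 74.1 CPM in mature neutrophils and was not called.

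The 5 enzymes of lower glycolysis, Gapdh, Pgk1, Pgam1, Eno1 and Pkm, were not called. Gapdh, which makes the NADH of glycolysis, was at 1106, 1522, 1029.6 and 1412 CPM in immature and 821, 2553, 760.0 and 1077 CPM in mature neutrophils. It was higher in the mature cells of control 2 and lower in those of the other 3 libraries, so the libraries went opposite ways. Pgk1, which makes the first ATP of the pathway, split likewise, with 215, 219, 250.3 and 217 CPM in immature and 131, 464, 152 and 141 CPM in mature neutrophils. Tpi1, triose phosphate isomerase, split more widely: 76.1, 89.6, 90.6 and 95.5 CPM in immature and 31.4, 312, 49.2 and 40.1 CPM in mature neutrophils. Aldoa, which cleaves the sugar bisphosphate, Eno1, enolase, and Pkm, pyruvate kinase, were each highest in control 2 in both stages, with Pkm at 498, 628, 563 and 554 CPM in immature and 525, 1514, 539 and 597 CPM in mature neutrophils. Pfkl, the liver-type phosphofructokinase, was low, at 8.32, 9.72, 9.52 and 8.59 CPM and 7.49, 65.1, 14.2 and 6.68 CPM, and was not called. The hexokinases Hk1 and Hk3 were not called either, with Hk3 at 235, 147, 273 and 190.3 CPM and 223, 142, 249.7 and 230.2 CPM. Without control 2, 11 of the 31 genes were called lower (39.0% of all genes) and 14 higher (35.2%). The 11 were Hk1, Hk2, Gpi1, Tpi1, Pfkfb3, Gapdh, Pgk1, Pgam1, Ldha, Egln1 and Ero1l, of which 7 are enzymes from glucose to pyruvate. The 14 were the 13 above and Pkm, whose log2 ratio went from 0.49 (adjusted p = 0.12) to 0.18 (adjusted p = 0.0303) by edgeR's quasi-likelihood test.

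At the end of the pathway the lactate exporter and the pyruvate gatekeeper rose, while lactate dehydrogenase was not called. Slc16a3, the lactate exporter MCT4, rose from 85.2, 78.8, 74.9 and 55.9 CPM in immature to 334, 863, 213 and 160.0 CPM in mature neutrophils. Each library rose, and control 2 reached the highest level. Its log2 ratio came to 2.23 (SE 0.34) with adjusted p = 0.00152 by edgeR's quasi-likelihood test. Pdk1, a kinase that keeps pyruvate out of the mitochondria, was sparse: 0.711, 2.16, 1.68 and 1.20 CPM in immature and 3.41, 29.7, 9.63 and 5.31 CPM in mature neutrophils. It still rose in all 4 libraries, by 2.73 (SE 0.29) on the log2 scale (adjusted p = 0.000328, edgeR's quasi-likelihood test). Ldha, the enzyme that turns pyruvate to lactate, was at 249, 397, 233 and 286 CPM and 118, 504, 147 and 141 CPM, higher in the mature cells of control 2 only.

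Of the oxygen-sensing genes Hif1a, Egln1 and Egln3, Hif1a and Egln3 rose. Hif1a was at 54.8, 68.5, 50.5 and 31.6 CPM in immature and 264, 369, 164 and 78.8 CPM in mature neutrophils. Adenosine 2 was lowest and control 2 highest in both stages, and every library rose. Its log2 ratio came to 2.08 (SE 0.21) with adjusted p = 0.000296 by edgeR's quasi-likelihood test. Egln3, a prolyl hydroxylase that is itself a HIF target, rose from 8.11, 6.48, 15.4 and 6.91 CPM to 46.5, 236, 108 and 30.7 CPM, a log2 difference of 3.14 (SE 0.45) (adjusted p = 0.00114, edgeR's quasi-likelihood test). Egln1, the main hydroxylase, was at 25.4, 19.97, 30.7 and 26.4 CPM in immature and 14.8, 40.4, 21.2 and 13.4 CPM in mature neutrophils and was not called.

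Among the other HIF targets Bnip3, Ankrd37, P4ha1, Ndrg1 and Mif rose. Ankrd37, a small ankyrin-repeat protein, was at 0.711, 7.02, 1.20 and 0.562 CPM in immature and 4.86, 111, 19.9 and 3.54 CPM in mature neutrophils. It had the largest ratio of the 31 genes, 3.68 (SE 0.30) on the log2 scale (adjusted p = 0.00013, edgeR's quasi-likelihood test), and the level in immature cells was near 1 CPM in 3 libraries. Bnip3, a mitophagy receptor, rose from 9.10, 13.5, 12.2 and 7.63 CPM to 36.6, 207, 64.95 and 40.7 CPM, in every library, with a log2 difference of 2.78 (SE 0.31) and adjusted p = 0.00041 by edgeR's quasi-likelihood test. P4ha1, a subunit of collagen prolyl 4-hydroxylase, rose from 3.34, 8.10, 7.76 and 1.77 CPM to 9.46, 169, 37.8 and 7.08 CPM. Control 2 stood far above the others in the mature cells only; the log2 ratio was 2.64 (SE 0.44) with adjusted p = 0.00228 by edgeR's quasi-likelihood test.

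Ndrg1, a stress-response gene, behaved unlike these in that its level in mature neutrophils was nearly the same in all libraries: 61.3, 63.9, 63.7 and 64.3 CPM, against 25.3, 21.05, 33.1 and 23.5 CPM in immature neutrophils. Its log2 ratio was 1.45 (SE 0.15) with adjusted p = 0.000264 by edgeR's quasi-likelihood test. Mif, a cytokine, rose from 12.9, 30.8, 26.5 and 11.6 CPM to 21.1, 374, 70.6 and 21.8 CPM, by 1.75 (SE 0.48) on the log2 scale (adjusted p = 0.0171, edgeR's quasi-likelihood test), or by 1.21 without control 2. Bnip3l, the mitophagy receptor NIX, was not called, with 254, 236, 273 and 256 CPM in immature and 217, 269.6, 244 and 209.5 CPM in mature neutrophils. Ero1l, an oxidase of the endoplasmic reticulum, was lower in the mature cells of 3 libraries and higher in those of control 2: 135, 103, 155 and 109 CPM against 25.5, 263, 56.9 and 16.5 CPM; over the 4 libraries it was not called. Ddit4, an inhibitor of mTORC1 signalling, was under 10 CPM in neutrophils except the mature ones of control 2 (2.36, 30.97, 6.88 and 4.32 CPM) and was not called.

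Of the 13 genes called higher, 11 (all but Pfkp and Mif) were called in each of the 4 fits that left out 1 library. The stages are ranges cut from a marker score, with 227, 97, 246 and 187 neutrophils near a cut, and a cluster led by Mmp8 and Retnlg, with no immature marker and 1 mature marker among its 10 leading genes, held 24.2, 40.00, 22.6 and 25.97% of the cells gated as immature. With classes taken from clusters, 13 of the 13 genes were again called higher and 2 of the 2 lower. The clusters were named by the same marker scores and held mostly the same cells, so this repeat is no independent check. The median depth was 2220.5, 2684, 2172 and 2164 UMIs per mature cell and 4573, 7431, 4063 and 5042 per immature cell, and its part in these ratios was not tested.

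**Figure D2:**
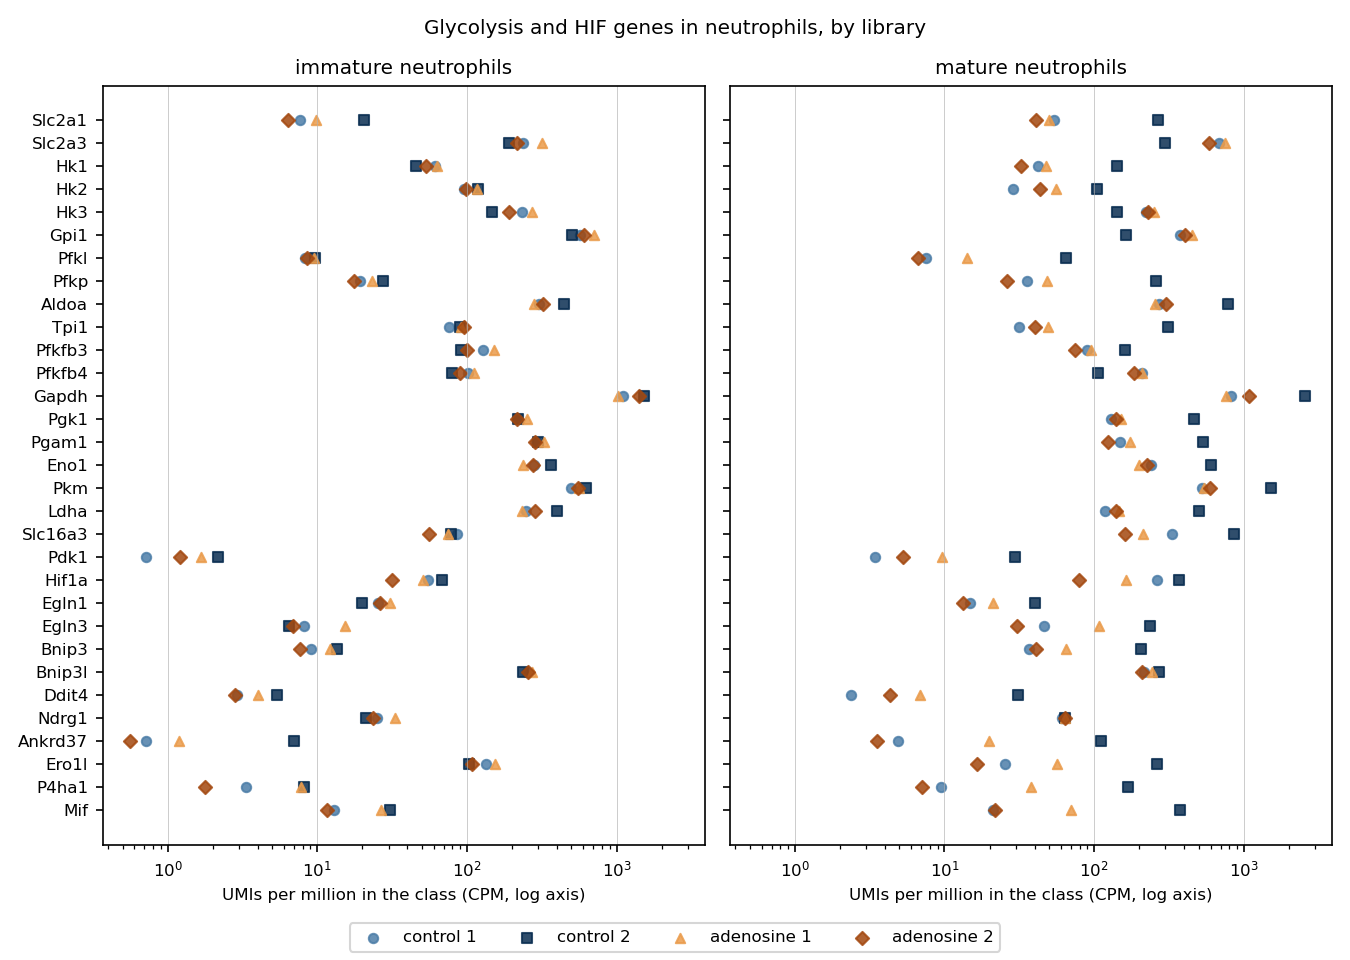
Levels of the 31 genes in immature (left) and mature (right) neutrophils, in CPM on a log axis, with 1 symbol per library. In mature neutrophils the dark squares of control 2 lie to the right for most genes and to the left for Slc2a3, Gpi1, Pfkfb4 and Hk3, while in immature neutrophils the 4 libraries lie closer together.

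**Figure D3:**
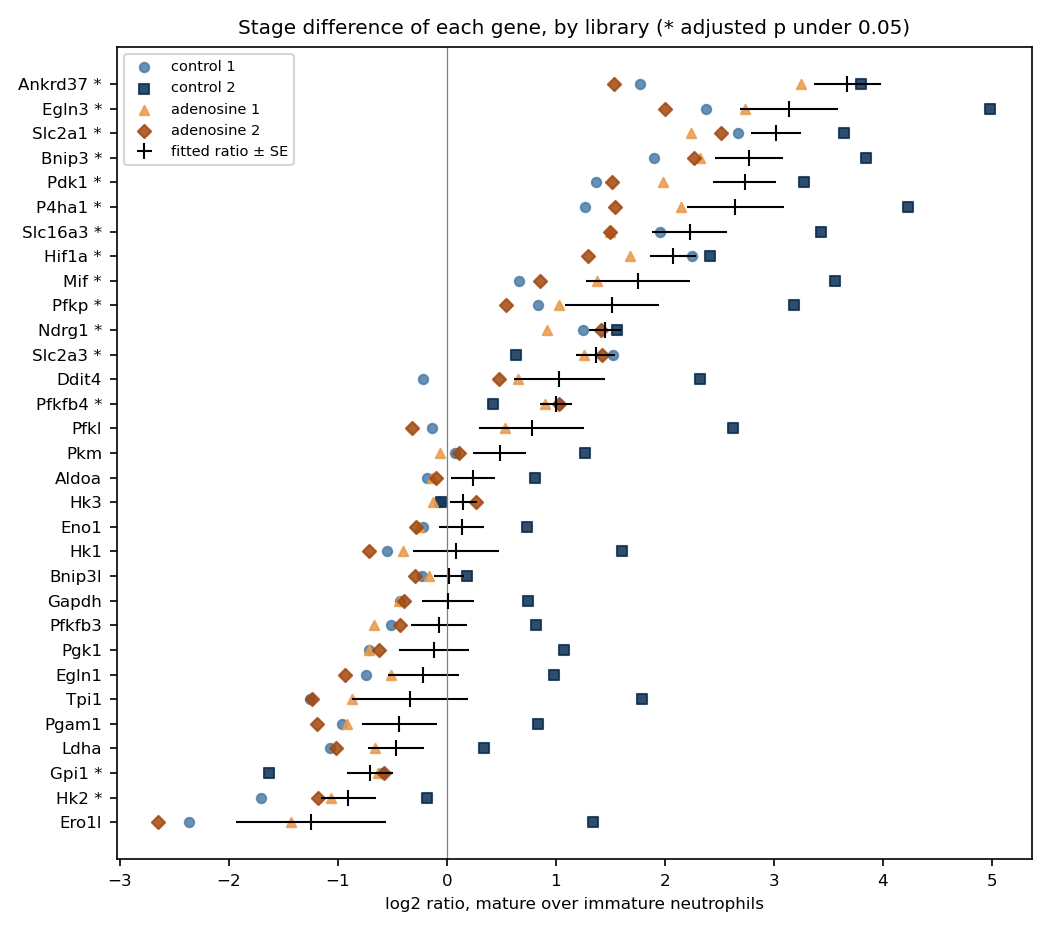
Log2 ratio of mature over immature neutrophils for each gene, with 1 symbol per library (from CPM with 1 CPM added) and the fitted ratio with its SE as a black tick, ordered by the fitted ratio; stars mark the 15 genes called. The fit does not add 1 CPM, and for the sparse Ankrd37 it lies above the symbols of 3 libraries.

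Genes of the neighbouring pathways, from lists of other genes, went different ways. They were counted with all libraries, and no count was made without control 2. Of 17 other HIF targets tested, 11 were higher and 1 lower in mature neutrophils. Of 28 other genes of glycolysis, pyruvate and the pentose phosphate pathway, 5 were higher and 15 lower, with a median log2 ratio of -0.77. Of 9 other oxygen-sensing genes 1 was higher and 3 were lower. Of all genes tested 29.4% were higher and 32.2% lower. By lowest adjusted p the leading ones were Slc2a6, a lysosomal hexose transporter, with 4.20, 5.94, 4.00 and 3.37 CPM in immature and 69.6, 56.9, 61.1 and 60.9 CPM in mature neutrophils (log2 ratio 4.07), and 4 enzymes of the pentose phosphate pathway, which makes NADPH and ribose. Pgls had a log2 ratio of -2.47, Rpia of -2.06, Rpe of -2.24 and G6pdx, its entry enzyme, of -1.02. Taldo1, transaldolase of the same pathway, went the other way, at 727, 824, 653 and 819 CPM in immature and 1689, 1337, 1436 and 2072 CPM in mature neutrophils (log2 ratio 1.25). These 6 had adjusted p of at most 0.000667 by edgeR's quasi-likelihood test.

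Monocytes and macrophages were compared with all neutrophils of the same library. Of the 31 genes 20 were lower in monocytes and macrophages (32.6% of all 12636 genes were lower) and 1 was higher (32.7% of all genes), by edgeR's quasi-likelihood test with the library as a block. The median log2 ratio was -0.90 for the glycolysis genes, -0.27 for the HIF genes and -0.01 for all genes. Scaling by library size alone moved the median of all genes to 0.77, and then 10 of the 31 were called lower (16.0% of all genes) and 9 higher (57.0%). The direction of the called genes Gapdh, Aldoa, Pgam1 and Pgk1, and of Eno1, Ankrd37 and Ndrg1, flipped under it, so the values below are relative to the other genes. In either direction 65.3% of all genes were called.

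The 10 genes called lower under both scalings, and with any library left out, were Slc2a3, Hk1, Hk3, Pfkfb3, Pfkfb4, Slc16a3, Egln3, Ddit4, Ero1l and Bnip3l. Slc2a3 had the largest log2 ratio in size of the 31 genes, with 392, 284, 466 and 323 CPM in neutrophils and 19.3, 12.1, 21.8 and 11.5 CPM in monocytes and macrophages. The ranges were far apart, and the log2 ratio was -5.32 (SE 0.18) (adjusted p = 2.0e-05, edgeR's quasi-likelihood test). Hk3, the hexokinase of myeloid cells, was at 231, 143, 265 and 202 CPM in neutrophils and 45.6, 28.4, 42.99 and 80.1 CPM in monocytes and macrophages, with a log2 difference of -2.95 (SE 0.22) and adjusted p = 0.000132 by edgeR's quasi-likelihood test. Slc16a3 was at 173, 765, 122 and 86.1 CPM and 42.2, 206, 47.99 and 31.2 CPM; control 2 was the highest library of either class, and within each library the monocytes and macrophages were lower. Its log2 ratio was -2.48 (SE 0.18), that of Egln3 -2.90 (SE 0.14), and both had adjusted p of at most 0.000115 by edgeR's quasi-likelihood test.

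Pfkfb3 and Pfkfb4 were lower in monocytes and macrophages by log2 ratios of -2.27 (SE 0.14) and -1.97 (SE 0.12), Ero1l by -2.09 (SE 0.12), Ddit4 by -1.61 (SE 0.24), Hk1 by -1.42 (SE 0.20) and Bnip3l by -1.39 (SE 0.15). Egln1 was the gene called higher, at 21.7, 37.9, 27.5 and 22.6 CPM in neutrophils and 49.8, 88.5, 61.9 and 54.1 CPM in monocytes and macrophages, a log2 difference of 0.42 (SE 0.12) with adjusted p = 0.0188 by edgeR's quasi-likelihood test; the call held in 1 of the 4 fits that left out a library. Hif1a was at 128, 332, 89.7 and 45.3 CPM in neutrophils and 226, 807, 184 and 114 CPM in monocytes and macrophages. Its log2 ratio of 0.32 (SE 0.12) missed the threshold with all libraries (adjusted p = 0.0546, edgeR's quasi-likelihood test), but it was called higher without control 2 (0.30, adjusted p = 0.0177) and by library size alone (1.11, adjusted p = 0.000589). Without control 2, Egln1, Hif1a, Pdk1, Tpi1, P4ha1, Mif, Pfkl and Pfkp were the 8 genes called higher (38.7% of all genes) and 20 lower (37.7%). Neutrophils here pool both stages, and the share of immature cells differed between libraries.

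In the same comparison 6 of 31 other glycolysis and pyruvate genes were higher and 13 lower, 5 of 20 other HIF targets were higher and 6 lower, and 2 of 10 other oxygen-sensing genes were higher and 5 lower. Of all genes tested 32.7% were higher and 32.6% lower, and the shares of HIF targets lie near these. Here too no count was made without control 2. The leading ones were 2 glycogen enzymes, the branching enzyme Gbe1 (log2 ratio -3.16) and the liver-type phosphorylase Pygl (-3.14), the pentose phosphate enzymes G6pdx (-1.43) and Pgd (-1.74), Cited2, which competes with HIF for a coactivator (-1.38), and the HIF target Ppfia4 (4.77). Pygl was at 691, 443, 835 and 582 CPM in neutrophils and 150.5, 80.2, 176 and 105 CPM in monocytes and macrophages. Ppfia4 was the reverse, at 1.57, 0.809, 1.05 and 0.570 CPM and 54.1, 28.2, 48.2 and 57.5 CPM. These 6 had adjusted p of at most 0.000324 by edgeR's quasi-likelihood test.

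Within mature neutrophils the widest differences between libraries set control 2 against the other 3. It was the highest library for 26 of the 31 genes, where it was highest for 31.7% of all genes tested. Over the mean of the other 3 libraries, its level was 11.8-fold for Ankrd37, 9.89-fold for Mif, 9.36-fold for P4ha1, 7.98-fold for Ero1l, 7.76-fold for Tpi1 and 5.54-fold for Slc2a1. For the more abundant enzymes Gapdh, Pkm, Aldoa and Eno1 it was between 2.71-fold and 2.88-fold. It was the lowest library for Gpi1 (0.395 times the mean of the others), Slc2a3 (0.441 times), Pfkfb4 (0.532 times) and Hk3 (0.606 times). Control 2 is 1 library, so this is a description with no test.

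The same held in monocytes and macrophages, where control 2 was highest for 24 of 31 genes (25.6% of all genes), led by Egln3 (8.63-fold over the mean of the others) and Ddit4 (6.51-fold). In dendritic cells it was highest for 20 of 29 (23.9% of all genes) and in B cells for 12 of 29 (26.0%). In immature neutrophils, of which control 2 held 210 cells, it was highest for 16 of 31 (20.9%) and lowest for 11 of 31 (51.5% of all genes). The gaps of those 16 were smaller than in mature neutrophils, the widest being 8.51-fold for Ankrd37. Macrophage markers were also highest in control 2. Their 7 genes, all detected, summed to 462, 2811, 838 and 480.2 CPM in monocytes and macrophages and 55.4, 90.9, 68.9 and 69.2 CPM in mature neutrophils. The median mitochondrial share per cell was 0.764, 0.324, 0.910 and 1.40% over all cells, whose mix of classes differed between libraries. Within mature neutrophils it was 0.280, 0.224, 0.348 and 0.221%, so control 2 did not stand apart there. Within monocytes and macrophages it was 3.38, 2.44, 3.49 and 3.08%. The part of either in the high levels of control 2 was not tested.

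Cell by cell the whole distribution of control 2 was moved. With each mature neutrophil thinned to 1000 UMIs, the mean number of UMIs from the 20 glycolysis genes was 4.28, 9.92, 4.38 and 4.32, the median was 4, 8, 4 and 4, and the highest decile began at 7, 19, 7 and 7. Shallower cells were left out (141, 50, 128 and 72). Without thinning the median share was 0.416, 0.840, 0.409 and 0.419% of a cell's UMIs. For the HIF genes the thinned means were 0.742, 2.16, 0.890 and 0.494. In immature neutrophils the thinned means for the glycolysis genes were 4.66, 5.61, 5.00 and 4.90, so the gap of control 2 was narrower there.

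**Figure D4:**
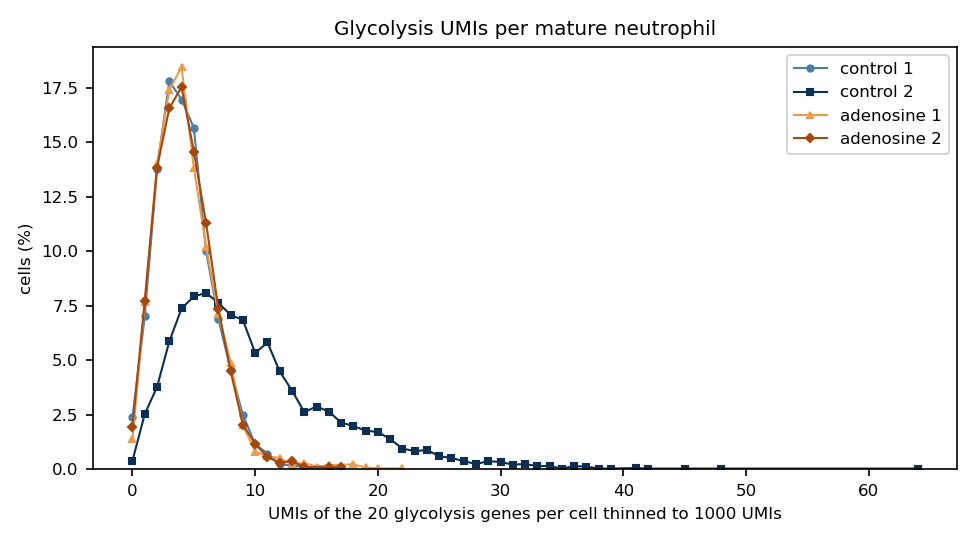
Share of mature neutrophils (%) by the number of UMIs from the 20 glycolysis genes in each cell after thinning to 1000 UMIs, 1 line per library. Control 1, adenosine 1 and adenosine 2 lie on top of each other with a median of 4, and control 2 has a median of 8 and a long right tail.

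The treatment comparison asks whether these genes differed between the adenosine and the control microgel. In no cell class was any of the 32 genes called, by edgeR's quasi-likelihood test with Benjamini-Hochberg adjustment, and no gene at all was called (0.0% in all cells, in neutrophils, in mature neutrophils, in monocytes and macrophages, in dendritic cells and in B cells). At an unadjusted p under 0.05 there were 420, 347, 310, 246, 156 and 517 genes in these classes, and DESeq2 called 19, 85, 34, 6, 1 and 6, none of them among the 32. In mature neutrophils 27 of the 31 genes had a ratio below 0 and 2 had an unadjusted p under 0.05, and the median log2 ratio of adenosine over control was -1.12 for glycolysis genes and -1.50 for HIF genes (all genes -0.00096). Without control 2, 7 of 31 were below 0, 22 had changed sign, and the medians were 0.13 and 0.56. Without the filter on low counts 10 of the 32 genes were called lower in mature neutrophils (2.06% of all genes, and 0.301% were higher) and 12 in all neutrophils (2.86% lower and 0.24% higher). With control 2 as the lone control, 24 genes were called lower (11.1% of all genes) and 1 higher (7.53%), in a fit where the lone control is taken to vary like the other group.

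Some genes had both adenosine libraries on 1 side of both controls, no more often than among all genes tested. In mature neutrophils this held for Slc2a1, Eno1, Slc16a3 and Hif1a, which were lower in adenosine (4 of 31, and 15.5% of all genes), and for Gpi1 and Hk3, which were higher (2 of 31, and 14.6%). Hif1a had the lowest p of the 31 genes: with the 4 levels given above, its log2 ratio was -1.50 (SE 0.47), with unadjusted p = 0.0203 and adjusted p = 0.896 by edgeR's quasi-likelihood test, and -1.10 without control 2. Slc16a3 had a log2 ratio of -1.81 (SE 0.59) (-0.81 without control 2) and Slc2a1 of -1.97 (SE 0.81) (-0.20). Neither these nor Hif1a changed sign with any library left out, and none passed the test.

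Other genes turned with control 2. The log2 ratio of Gapdh in mature neutrophils was -0.98 (SE 0.69) and 0.23 without control 2, that of Ldha -1.25 (SE 0.74) and 0.33, and that of Egln3 -1.22 (SE 0.93) and 0.57. Slc2a3 and Hk3, lowest in control 2, had ratios of 0.42 (SE 0.45) and 0.35 (SE 0.34), or 0.01 and 0.15 without it. Adjusted p was at least 0.896 for every one of the 31 genes by edgeR's quasi-likelihood test.

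In monocytes and macrophages 28 of 31 genes were below 0 with all libraries and 7 of 31 without control 2, and the smallest adjusted p was 0.999 by edgeR's quasi-likelihood test. Hif1a was at 226, 807, 184 and 114 CPM, so both adenosine libraries were below both controls, with a log2 ratio of -1.99 (SE 0.70) and -0.63 without control 2. Pfkfb3 was the other such gene (2 of 31, and 8.57% of all genes), and Ndrg1 was higher in both adenosine libraries (1 of 31, and 17.1%). Slc16a3 had a log2 ratio of -1.85 (SE 0.81), Slc2a1 of -1.56 (SE 0.89), Ldha of -1.07 (SE 0.69) and Egln3 of -2.21 (SE 1.31). Without control 2 these were -0.11, 0.49, 0.29 and 0.84. With control 2 as the lone control, 13 of the 31 were called lower (3.01% of all genes) and none higher (2.32%). Immature neutrophils and monocytes are not read apart by treatment, since a cluster of each had more markers of another class than of its own among its leading genes.

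The difference of the treatment effect between monocytes and macrophages and neutrophils was tested as an interaction. Of 13627 genes 0.0% were called, and none of the 31 genes, by edgeR's quasi-likelihood test, with 273 genes at an unadjusted p under 0.05. Without control 1, 9 of the 31 genes were called higher in this difference (10.1% of all genes) and 1 lower (9.21%).

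**Figure D5:**
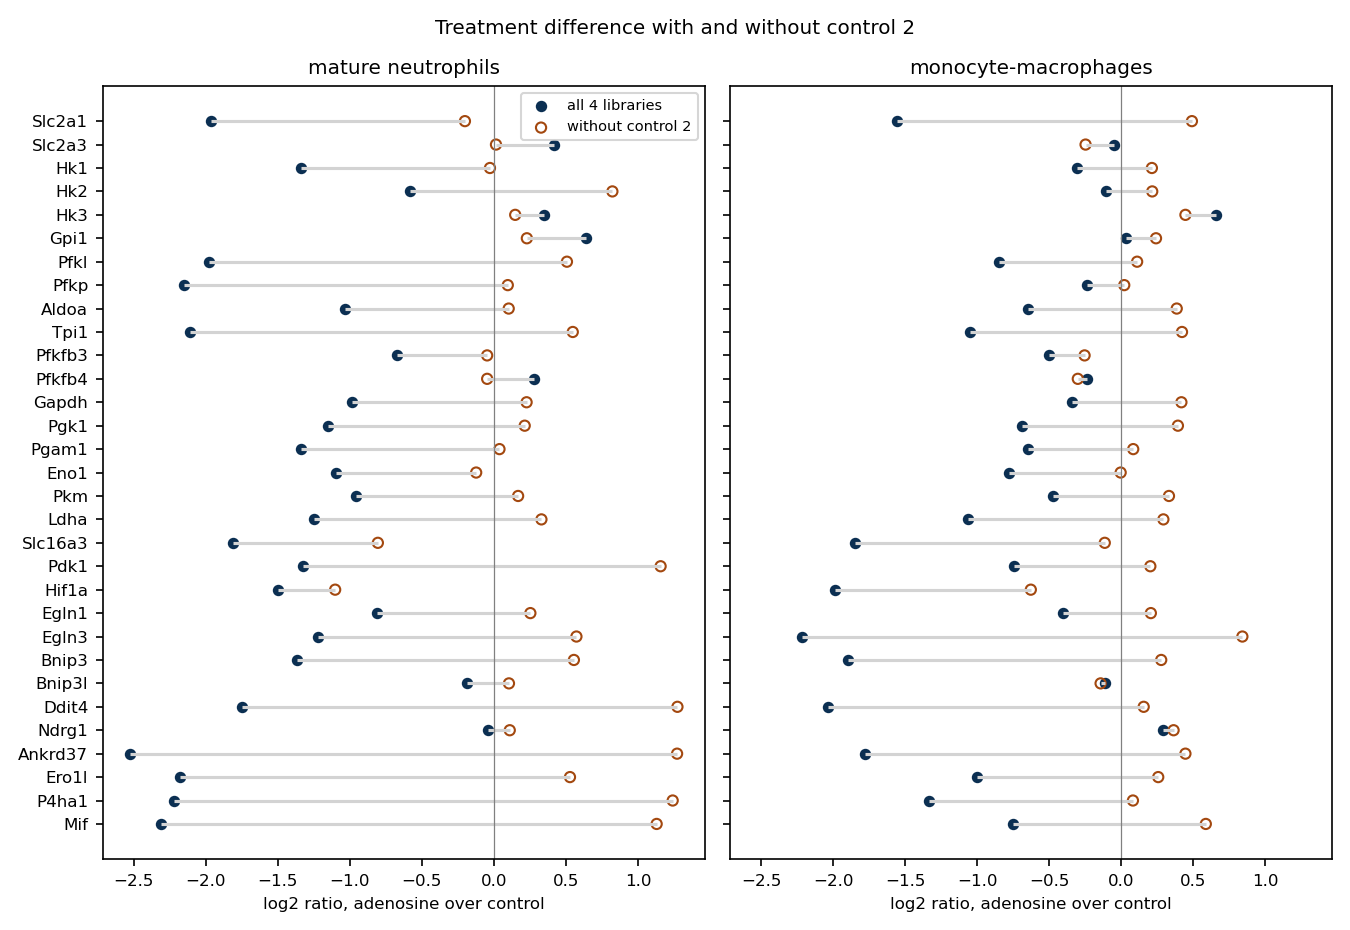
Log2 ratio of adenosine over control for the 31 genes in mature neutrophils (left) and in monocytes and macrophages (right), with all 4 libraries (filled) and without control 2 (open), joined by a grey line. Most filled points lie below 0 and most open points lie near or above it, and Hif1a and Slc16a3 stay below 0 in both.

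In B cells 19 of 29 genes tested were below 0, without control 2 this count was 14, and 5 genes changed sign. Whether this differs from neutrophils was not tested. Both adenosine libraries were below both controls for 12 of 29 genes (17.6% of all genes), among them Gapdh, Pgk1, Pgam1, Pkm, Eno1, Tpi1, Ldha and Mif, and above them for 3 of 29 (15.2%). Gapdh was at 658, 614, 269 and 369 CPM and Ldha at 131, 157, 51.5 and 79.1 CPM. Mif was at 374, 252, 96.1 and 120.3 CPM, a log2 difference of -1.55 (SE 0.34) and the lowest p of the 29 (unadjusted p = 0.00109, adjusted p = 0.555 by edgeR's quasi-likelihood test). Without control 2 Mif was the 1 gene of these called (1.09% of all genes were called lower and 0.00911% higher). Control 2 held 81 B cells and 369505 B cell UMIs, and the share of B cells in a cluster of precursors led by Vpreb3 was 29.1%, 11.1%, 9.18% and 12.4%; its part in these levels was not tested.

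In dendritic cells both adenosine libraries were below both controls for Hk2, Pfkfb4, Slc16a3 and Ero1l (4 of 29, and 7.71% of all genes) and above them for Pfkp (1 of 29, and 16.7%). Slc16a3 was at 9.07, 69.8, 7.65 and 8.68 CPM there, so control 2 was the highest library.

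T or NK cells were not tested, as control 2 held 43 of them. Gapdh was at 366, 895, 382 and 1626 CPM and Tpi1 at 24.98, 61.9, 39.3 and 133 CPM there. In both genes adenosine 2, with 1200 such cells, was the highest library, and adenosine 1 lay near control 1, so the adenosine libraries did not go together.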

How the data were processed

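Droplet single-cell RNA libraries of 4 samples were used. The authors deposited unnormalized UMI counts of each barcode, made with Cell Ranger 7.0.0 on build mm10, per the submitters' processing notes; the annotation release is not given in the sources used here.

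Cells with fewer than 200 genes or 10% or more mitochondrial UMIs were removed (1576), then the 2418 highest Scrublet scores (scanpy 1.11.5), at 0.8% per 1000 barcodes. A cell took the class with the highest mean scaled marker level (18 lists) if 2 markers had a UMI and the margin over the next class was 0.05; this rule was set after seeing the data, and 1312 cells lay within a margin of 0.1. Clusters were named by the mean of the same marker scores, and by cluster 92.2% of assigned cells had the same class. Counts were summed per library and class, kept where each library had 50 cells, passed through filterByExpr, given TMM factors, then tested with edgeR 4.0.16's quasi-likelihood test (R 4.3.3), p-values two-sided and Benjamini-Hochberg adjusted over all genes tested, threshold 0.05. Monocytes and macrophages were not compared with each other, since 2 libraries held under 50 macrophages. Each SE is the size of the log2 ratio divided by the square root of the F statistic of that test, not an output of the fit. The procedure was tested on simulated data.

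The 32 genes and the lists were chosen with earlier results of these data known. All 32 genes could be named; of the other pathway genes, up to 6 with the lowest adjusted p and a mean of 20 CPM or more in either group. Replicate numbers did not pair the samples. Alternatives were DESeq2 1.42.0, library-size scaling, no filter, no doublet removal, clusters as classes, the block, and leaving out each library. A count of 3 UMIs, the limit that a count of 0 allows, is 0.0603, 0.102, 0.0578 and 0.0517 CPM over all cells and covers counting error only. Within a class it is higher. In control 2 it is 0.231 CPM in mature neutrophils, 1.62 CPM in immature neutrophils and 8.12 CPM in B cells.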

Additional observations from a re-analysis of the deposited data

Results flagged for a closer look

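For 10 genes the log2 ratio of mature over immature neutrophils in control 2 lay far from the ratios of the other 3 libraries, with a gap above Dixon's 95% critical value for 4 values. The ratio of control 2 was 1.61 for Hk1, 0.81 for Aldoa, 1.79 for Tpi1, 0.81 for Pfkfb3, 0.75 for Gapdh, 1.08 for Pgk1, 0.84 for Pgam1, 0.73 for Eno1 and 1.27 for Pkm, above the other libraries, and -1.63 for Gpi1, below them. In the ratio of monocytes and macrophages over neutrophils, Gpi1 in control 2 (0.45) and Egln3 in control 1 (-2.17) lay apart in the same way. Of 31 genes examined in each comparison, 10 and 2 were so marked. Chance marks about 1 in 20 groups of 4, and the genes share the same libraries. These ratios add 1 CPM to each level.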

How the results depend on the processing

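For the treatment, DESeq2 called 19 genes in all cells, 85 in neutrophils, 34 in mature and 3 in immature neutrophils, 6 in monocyte-macrophages, 8 in monocytes, 1 in dendritic cells and 6 in B cells, and none of the 32 genes. Without a filter on low counts edgeR called 646, 455, 117, 1, 205, 74 and 128 in the 7 classes from neutrophils on, and of the 32 genes 12 in neutrophils, 10 in mature neutrophils, 4 in monocytes, 1 in dendritic cells and 1 in B cells. In immature neutrophils library size alone called 1 gene and the replicate block 3; the block changed no other call, and same-numbered libraries correlated by at most 0.0571. Leaving out 1 library gave 0 to 4199 genes in neutrophils (0 to 25 of the 32), 0 to 2036 in mature (0 to 25) and 2 to 71 in immature neutrophils, 0 to 703 in monocyte-macrophages (0 to 13), 0 to 929 in monocytes (0 to 14), 2 to 657 in dendritic cells (0 to 9), 15 to 121 in B cells (0 to 1) and 0 to 2781 for the difference between classes (0 to 10), the highest of the 32-gene counts coming without control 1 except in B cells, where it came without control 2. Of 31 genes 12 to 25 were called between neutrophil stages, against 15. Leaving out control 2 turned the sign of 22 of 31 log2 ratios by treatment in mature neutrophils and 21 of 31 in monocyte-macrophages. For those among them with a ratio in the text, parentheses give the range over the fits that each left out 1 library. The upper end is the fit without control 2, and the ratios with all libraries are those given above. In mature neutrophils these genes were Gapdh (-1.61 to 0.23), Ldha (-1.96 to 0.33) and Egln3 (-2.24 to 0.57). In monocyte-macrophages they were Slc2a1 (-2.37 to 0.49), Ldha (-1.74 to 0.29) and Egln3 (-3.35 to 0.84). For monocyte-macrophages against neutrophils, dropping the library block left 10 of 21 calls, and library size alone turned Gapdh (0.19), Aldoa (0.0586), Pgam1 (0.0919) and Pgk1 (0.15). The causes were not tested. With 2 libraries a group and 1 standing apart, a treatment difference of these genes may be missed.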

Other observations

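Of 18 other HIF targets tested in mature neutrophils, control 2 was the highest library for 14 and the lowest for 3 (Mxi1, Ppfia4 and Sap30), where it was highest for 31.7% of all genes. In monocytes and macrophages it was highest for 10 of 20 and lowest for 4 (25.6% of all genes highest). The 4 genes that follow were chosen after their values were seen. In mature neutrophils Hilpda, a lipid droplet protein, was at 6.96, 197, 12.7 and 1.97 CPM, Hmox1, heme oxygenase, at 46.6, 352, 34.7 and 47.6 CPM and Plin2, another lipid droplet protein, at 152, 595, 103 and 132 CPM. In monocytes and macrophages Vegfa, the growth factor for vessels, was at 3.97, 73.1, 5.63 and 0.257 CPM and Hilpda at 6.31, 72.5, 8.60 and 6.16 CPM. In each of these control 2 was the highest library, and the other 3 were far below it for Hilpda and Vegfa. These are values of 1 library and carry no test.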
